A study of Mus musculus with 9 samples.

Results

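Levels of 9 complement genes were followed in 9 RNA-seq libraries of mouse vascular tissue. They are the membrane regulators Cd55 and Cd59a, the fluid-phase regulators Clu and Serping1, the classical pathway genes C1ra, C1s1 and C4b, the central component C3 and the alternative pathway gene Cfb, 9 of the 54532 genes in the table. The genes were picked by name, with the difference between SAHH-het and SAHH-WT already known: Cd55 and Clu were among the lower genes with the smallest p-values in it. That difference is therefore given for all 9 genes as a description, with no test. The libraries fall into SAHH-het+betaine, SAHH-het and SAHH-WT, 3 each. SAHH-het+betaine mice were heterozygous for SAHH and received betaine, a methyl donor used to remethylate homocysteine, SAHH-het mice were heterozygous and SAHH-WT mice were wild type for SAHH. All were C57BL/6 mice aged 24 weeks that carry the ApoE-/- label, a background prone to atherosclerosis. SAHH, encoded by Ahcy, hydrolyses S-adenosylhomocysteine, and its heterozygous state is the variable the study set against wild type. The dose and duration of betaine, the design of both alleles and whether each library came from its own animal are not stated in the labels, so p-values measure only the spread between libraries, which may be technical.

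Complement is a cascade of plasma and surface proteins that tags particles for removal and punctures membranes. The classical pathway starts when C1q, with its proteases C1r and C1s, cleaves C4 and C2. The lectin pathway enters at the same step through mannan-binding lectin, ficolins and collectins, and the alternative pathway amplifies C3 cleavage through factor B and factor D. Host cells are shielded by CD55, which speeds the decay of the C3-cleaving enzymes, by CD59, which blocks assembly of the membrane attack complex, and in fluid by C1 inhibitor and clusterin. Most plasma complement is made in the liver, and fibroblasts, fat cells and macrophages of the artery and its surroundings also make several components.

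Recovered from the steps of the deposited FPKM values, the depth was between 15832043 and 17377834 fragments per library. The targeted gene Ahcy measured 7.66, 9.70 and 8.63 FPKM in SAHH-het+betaine, 3.48, 3.89 and 4.75 in SAHH-het libraries, and 11.5, 7.17 and 7.98 FPKM in SAHH-WT. Only the libraries labelled SAHH-het alone were thus below SAHH-WT, although both heterozygous groups carry the label. Apoe measured 5.51 to 8.88 FPKM in SAHH-het+betaine, 149 to 225 FPKM in SAHH-het and 2.91 to 6.11 FPKM in SAHH-WT, so the level in the libraries labelled SAHH-het goes against their ApoE-/- label. Every direction below for SAHH-het comes from those libraries. The smooth muscle genes Myh11 (4.76 to 24.2 FPKM) and Acta2 (37.8 to 163 FPKM) and the endothelial gene Pecam1 (21.3 to 124 FPKM) were present in every library. Of the other smooth muscle markers, Smtn lay at 8.14 to 18.8 FPKM and Cnn1 at 0.842 to 11.8 FPKM. Tagln (0.182 to 1.05 FPKM) and Myocd (0.0939 to 0.562 FPKM) were low in all libraries. Genes of fat, muscle and lymphocytes were present too and varied within groups. The 4 brown fat markers summed to 432 to 12356 FPKM, against 58.3 to 209.7 FPKM for the 6 smooth muscle markers. Such sums are not shares of cells. SAHH-WT 1 alone held genes of the adrenal cortex, with a summed level of 9625 FPKM over 5 genes against at most 2.73 FPKM elsewhere.

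Of the 9 genes, 8 passed the filter for testing, a level averaging 0.5 FPKM or more, and Cfb did not. On the FPKM scale, which is per exon length, their means over all 9 libraries ran in the order C3 (279 FPKM), Serping1 (59.9), Cd59a (51.8), Clu (51.7), C4b (43.1), C1s1 (24.3), C1ra (13.8), Cd55 (6.90) and Cfb (0.137). The ranges of Serping1, Cd59a, Clu and C4b over the libraries overlapped, so their order is not set by these data, and the lowest C3 libraries lay within the ranges of Clu and C4b. C1s1 exceeded Clu in SAHH-het+betaine 3, SAHH-het 3 and, narrowly, SAHH-het 1. It exceeded Cd59a and C4b in SAHH-WT 2, so its place below Clu, Cd59a and C4b is not set either. For Cd55, Clu, Serping1, C1ra and C1s1 the mean was lowest in SAHH-het, higher in SAHH-het+betaine and highest in SAHH-WT. Cd59a, C4b and C3 did not have this order. Differences below are of log2(FPKM + 0.5), which understates the change of low genes. Adjusted p-values are Benjamini-Hochberg values over all 15610 tested genes from limma, and none of the 9 genes passed an adjusted p under 0.05 in any comparison.

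**Figure D1:**
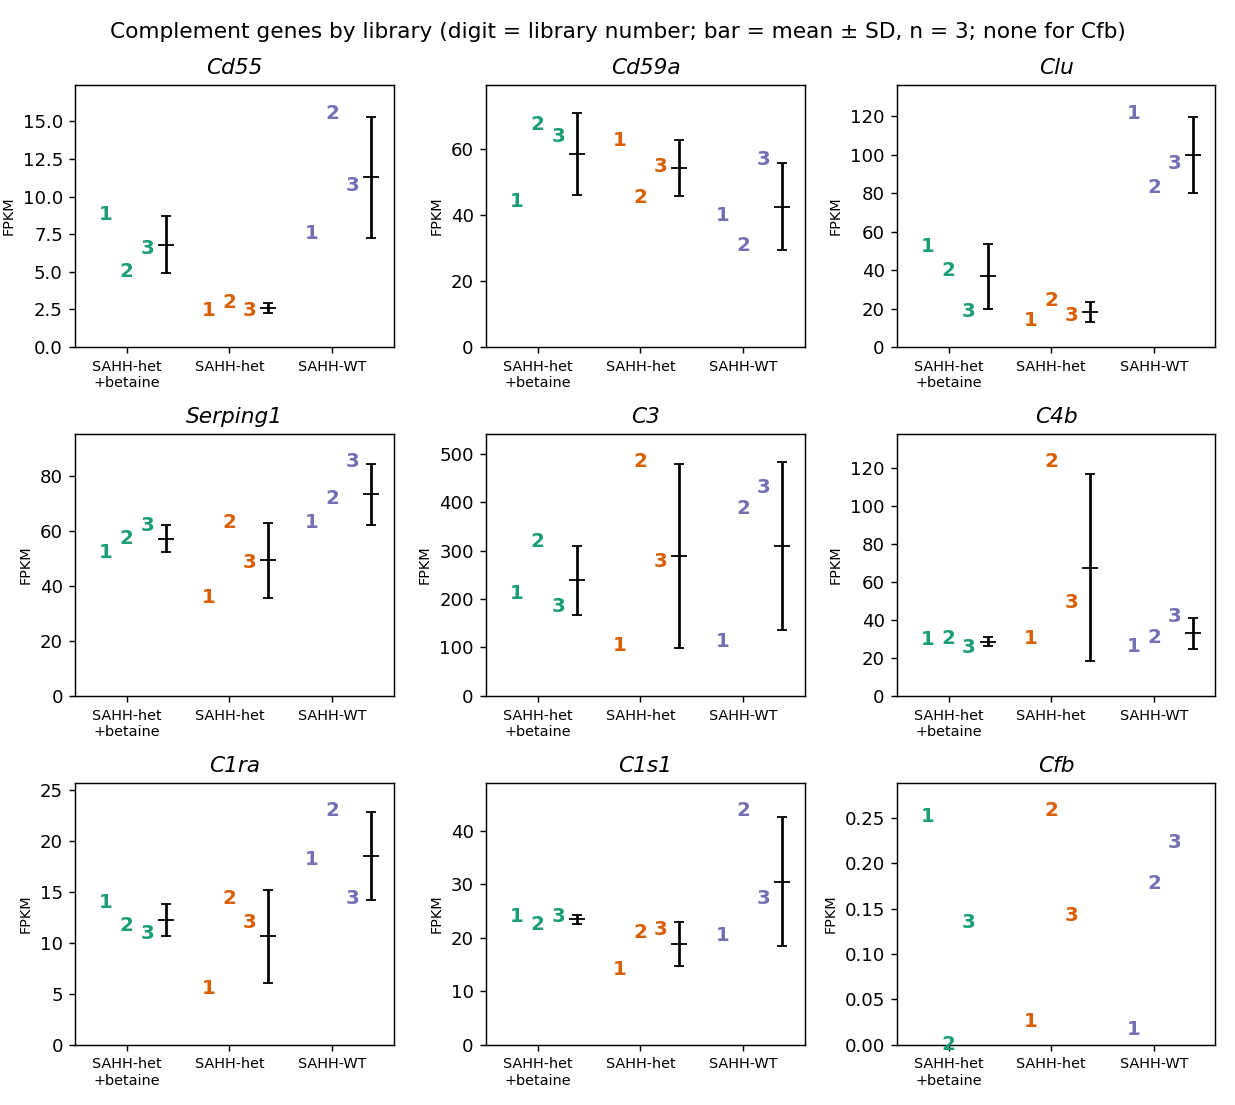
FPKM of the 9 complement genes in each library, 1 panel per gene, on linear axes that differ between panels. Points are libraries of SAHH-het+betaine, SAHH-het and SAHH-WT from left to right, and bars are means, left out for Cfb because of its listed 0. Cd55 in SAHH-het lies between 2.40 and 2.99 FPKM, under every library of the other groups, and Clu in SAHH-WT lies at 83.1 FPKM or more, above every other library.

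Cd55 encodes decay-accelerating factor, a protein anchored to the outer membrane that dismantles C3 convertases. The gene (ENSMUSG00000026399) lies on chromosome 1 at 130439027 to 130462744 of GRCm38, on the minus strand. It measured 8.80, 5.05 and 6.56 FPKM in SAHH-het+betaine, 2.44, 2.99 and 2.40 FPKM in SAHH-het, against 7.52, 15.5 and 10.7 FPKM in SAHH-WT. SAHH-het libraries were the 3 lowest, with no overlap with either other group, while SAHH-het+betaine and SAHH-WT overlapped. The mean was 6.80 ± 1.89 FPKM in SAHH-het+betaine, 2.61 ± 0.326 FPKM in SAHH-het, against 11.3 ± 4.04 FPKM in the SAHH-WT group (SD, n = 3 each). The difference between SAHH-het and SAHH-WT, on which the gene was chosen, was -1.87, with a ratio of mean FPKM of 0.232. Without SAHH-WT 1 it was -2.12. In bulk tissue, fewer cells that express a gene and less RNA per cell cannot be told apart.

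SAHH-het+betaine exceeded SAHH-het in Cd55 by 1.20 (95% interval 0.56 to 1.85, limma adjusted p = 0.494), higher in 3 of 3 libraries. The difference of SAHH-het+betaine relative to SAHH-WT was -0.66 (-1.31 to -0.02, limma adjusted p = 0.618), or -0.91 without SAHH-WT 1 and -0.41 without SAHH-WT 2. Both comparisons share libraries with the one that chose the gene, and only the SAHH-het+betaine libraries were not used in that choice. Between 164 and 1354 fragments per library stand behind these values, the fewest in SAHH-het, where counting error is a larger part of the spread. The paralog Cd55b was listed at 0 in 8 libraries and at 0.0706 FPKM in SAHH-het+betaine 1, and 4.19% of 100-base stretches of Cd55 transcripts occur in it.

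Cd59a encodes the mouse form of CD59, the inhibitor of the membrane attack complex found on most tissues. The gene (ENSMUSG00000032679) lies on chromosome 2 at 104095801 to 104115354 of GRCm38, on the plus strand. Its levels were 44.3, 67.5 and 63.9 FPKM in SAHH-het+betaine, 62.6, 45.5 and 54.8 FPKM in SAHH-het, against 40.1, 30.9 and 56.9 FPKM in SAHH-WT. All 3 groups overlapped, and Cd59a had none of the low SAHH-het levels of Cd55. The difference was 0.10 for SAHH-het+betaine relative to SAHH-het (-0.52 to 0.72, limma adjusted p = 0.949), 0.38 for SAHH-het relative to SAHH-WT and 0.47 for SAHH-het+betaine relative to SAHH-WT (-0.14 to 1.09, limma adjusted p = 0.637). Without SAHH-WT 2, the lowest Cd59a library, the last 2 were 0.17 and 0.27, and without SAHH-WT 3 the value for SAHH-het was 0.61. The paralog Cd59b, which in mouse is known mainly from testis, was lower per length, at 7.28, 9.75 and 14.7 FPKM in SAHH-het+betaine, 5.79, 2.07 and 5.98 FPKM in SAHH-het, against 4.45, 5.57 and 6.79 FPKM in SAHH-WT. All SAHH-het+betaine libraries exceeded the others in Cd59b, by 1.18 over SAHH-het (limma adjusted p = 0.559) and 0.82 over SAHH-WT (limma adjusted p = 0.618).

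The start regions of the pair of membrane regulators are shown because the genes shield the same surfaces and had different levels over the groups. The windows hold 250 bases before and 50 after the RefSeq start of the gene, in GRCm38.p6, read 5′ to 3′ on the gene's strand. They are chr1:130462695-130462994 on the minus strand for Cd55 and chr2:104095551-104095850 on the plus strand for Cd59a. Capitals mark matches to the GC box GGGCGG on either strand.
Cd55: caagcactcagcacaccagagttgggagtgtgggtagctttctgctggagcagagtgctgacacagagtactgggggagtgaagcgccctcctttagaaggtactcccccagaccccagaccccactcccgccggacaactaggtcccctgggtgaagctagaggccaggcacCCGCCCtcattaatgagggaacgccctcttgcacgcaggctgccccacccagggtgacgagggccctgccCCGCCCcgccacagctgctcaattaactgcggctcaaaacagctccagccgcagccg
Cd59a: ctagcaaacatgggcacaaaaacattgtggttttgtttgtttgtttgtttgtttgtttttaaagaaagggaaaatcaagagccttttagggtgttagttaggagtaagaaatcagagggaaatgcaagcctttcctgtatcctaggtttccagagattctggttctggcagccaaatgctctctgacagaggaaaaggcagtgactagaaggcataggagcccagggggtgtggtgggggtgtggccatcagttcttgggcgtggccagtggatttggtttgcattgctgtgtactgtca
The Cd55 window is 63.3% G and C and holds 2 GC boxes, which begin 77 and 7 bases before the start. Of 32851 RefSeq mouse windows of this length, 35.7% hold at least 1. The Cd59a window is 45.7% G and C and holds no match to GGGCGG, nor to the other motifs searched on both strands. These were AP-1 (TGANTCA, in 7.81% of windows), CRE (TGACGTCA, 1.79%), C/EBP (TTGCNNAA, 10.8%), GAS (TTCNNNGAA, 8.30%), the TATA box (TATAAA, 13.6%) and CCAAT (37.4%). Matches of different motifs were counted even where they overlap. A match is a description of the letters and says nothing of a factor bound there.

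Clu encodes clusterin, a secreted chaperone that binds the forming membrane attack complex and also travels with lipoproteins. The gene (ENSMUSG00000022037) lies on chromosome 14 at 65968483 to 65981547 of GRCm38, on the plus strand. It measured 52.1, 39.5 and 18.7 FPKM in SAHH-het+betaine, 13.9, 24.2 and 16.6 FPKM in SAHH-het, against 122, 83.1 and 95.3 FPKM in SAHH-WT. All 3 SAHH-WT libraries stood above all 6 others, and SAHH-het+betaine overlapped SAHH-het through SAHH-het+betaine 3. Clu averaged 36.8 ± 16.9 FPKM in SAHH-het+betaine, 18.2 ± 5.35 FPKM in SAHH-het, against 99.99 ± 19.7 FPKM in SAHH-WT (SD, n = 3 each). The difference of SAHH-het relative to SAHH-WT, on which Clu was chosen, was -2.44, with a ratio of mean FPKM of 0.182, and it was -2.29 without SAHH-WT 1.

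SAHH-het+betaine differed from SAHH-WT in Clu by -1.53 (95% interval -2.40 to -0.67), with a ratio of means of 0.368 and all 3 libraries below SAHH-WT. This did not pass (limma adjusted p = 0.618, unadjusted p = 0.0033). SAHH-het+betaine relative to SAHH-het was 0.91 (0.05 to 1.78, limma adjusted p = 0.606), which was 0.60 without SAHH-het+betaine 1 and 1.33 without SAHH-het+betaine 3. Both share libraries with the choosing comparison. Behind Clu stood 660 to 8523 fragments per library, and no 100-base stretch of its transcripts occurs in another gene.

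Serping1 encodes C1 inhibitor, the serpin that inactivates C1r and C1s. The gene (ENSMUSG00000023224, chromosome 2, 84765387 to 84775444, minus strand, GRCm38) measured 52.3, 57.1 and 62.1 FPKM in SAHH-het+betaine, 36.0, 63.2 and 48.6 FPKM in SAHH-het, against 63.0, 71.8 and 85.1 FPKM in SAHH-WT. SAHH-het+betaine lay wholly below SAHH-WT, narrowly at the nearest pair, and SAHH-het overlapped both. Differences were 0.25 for SAHH-het+betaine relative to SAHH-het (limma adjusted p = 0.812), -0.59 for SAHH-het relative to SAHH-WT and -0.35 for SAHH-het+betaine relative to SAHH-WT (-0.88 to 0.18, limma adjusted p = 0.666). Without SAHH-het 1, the lowest Serping1 library, the first 2 were 0.04 and -0.39, and without SAHH-het 2 the first was 0.44.

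C1ra and C1s1 encode the proteases C1r and C1s, which Serping1's product inhibits. They lie close together on chromosome 6 of GRCm38, C1ra (ENSMUSG00000055172) at 124512405 to 124523443 on the plus strand and C1s1 (ENSMUSG00000038521) at 124530345 to 124542359 on the minus strand. C1ra measured 14.0, 11.7 and 10.9 FPKM in SAHH-het+betaine, 5.51, 14.346 and 12.0 FPKM in SAHH-het, against 18.1, 22.9 and 14.367 FPKM in SAHH-WT. All 6 libraries labelled heterozygous were below SAHH-WT, but SAHH-het 2 and SAHH-WT 3 were nearly equal. Differences were 0.29 for SAHH-het+betaine relative to SAHH-het (limma adjusted p = 0.858), -0.85 for SAHH-het relative to SAHH-WT, which was -0.45 without SAHH-het 1, and -0.56 for SAHH-het+betaine relative to SAHH-WT (limma adjusted p = 0.644). The first was 0.19 without SAHH-het+betaine 1, -0.11 without SAHH-het 1 and 0.54 without SAHH-het 2.

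C1s1 measured 24.0, 22.4 and 23.9 FPKM in SAHH-het+betaine, 14.0, 21.1 and 21.5 FPKM in SAHH-het, against 20.4, 43.7 and 27.3 FPKM in SAHH-WT. SAHH-het+betaine lay above SAHH-het without overlap. SAHH-WT overlapped both, with SAHH-het 1 below every SAHH-WT library. Differences were 0.33 for SAHH-het+betaine relative to SAHH-het (limma adjusted p = 0.783), -0.64 for SAHH-het relative to SAHH-WT and -0.30 for SAHH-het+betaine relative to SAHH-WT (limma adjusted p = 0.743). Without SAHH-WT 2, the highest C1s1 library, the last 2 were -0.34 and -0.01. Without SAHH-WT 1 the last was -0.55, and without SAHH-het 1 the first was 0.14. C1s1 exceeded C1ra per length in all 9 libraries. Their paralogs C1rb (at most 0.138 FPKM) and C1s2 (at most 0.295 FPKM) were near 0. Of the 100-base stretches of C1ra transcripts 34.5% also occur in C1rb, so fragments there could be split or dropped by the counting, and C1ra levels are uncertain to that extent. For C1s1 and C1s2 the share is 6.87%.

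C4b encodes complement C4, whose cleaved form binds to surfaces and carries the classical C3 convertase. The gene (ENSMUSG00000073418, chromosome 17, 34728380 to 34743882, minus strand, GRCm38) measured 29.5, 30.5 and 25.7 FPKM in SAHH-het+betaine, 30.5, 123 and 49.0 FPKM in SAHH-het, against 26.0, 31.1 and 42.0 FPKM in SAHH-WT. SAHH-het 2 stood alone, far above SAHH-het 3 as the next library, and the groups overlapped. The difference of SAHH-het+betaine relative to SAHH-het was -0.99 (-2.01 to 0.04, limma adjusted p = 0.628) and -0.43 without SAHH-het 2. SAHH-het relative to SAHH-WT was 0.81, with 0.25 without SAHH-het 2 and 1.25 without SAHH-het 1. The difference of SAHH-het+betaine relative to SAHH-WT was -0.18 (limma adjusted p = 0.908), and ran from -0.34 to 0.0048 with single libraries left out. The paralog C4a measured 6.65 FPKM in SAHH-WT 1, the library with adrenal genes, and at most 0.268 FPKM in the others, and 15.2% of 100-base stretches of C4b occur in C4a, so the split between them is uncertain.

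C3 encodes the protein on which all 3 pathways meet. The gene (ENSMUSG00000024164, chromosome 17, 57203970 to 57228136, minus strand, GRCm38) had the highest mean level of the 9 members, though Clu exceeded it in SAHH-WT 1. It measured 212, 319 and 184 FPKM in SAHH-het+betaine, 104, 483 and 278 FPKM in SAHH-het, against 112, 386 and 431 FPKM in SAHH-WT. The groups overlapped throughout, and SAHH-het and SAHH-WT each had 1 library far below its other 2. Differences were -0.06 for SAHH-het+betaine relative to SAHH-het (limma adjusted p = 0.990), -0.14 for SAHH-het relative to SAHH-WT and -0.19 for SAHH-het+betaine relative to SAHH-WT (limma adjusted p = 0.937). No direction held when single libraries were left out. The value for SAHH-het relative to SAHH-WT was 0.47 without SAHH-het 1, -0.76 without SAHH-WT 1, 0.13 when SAHH-WT 2 was left out and 0.21 when SAHH-WT 3 was, and that for SAHH-het+betaine relative to SAHH-WT ran from -0.81 without SAHH-WT 1 to 0.16 without SAHH-WT 3. The start window of C3 is shown as that of the member with the highest mean, chr17:57228087-57228386 of GRCm38.p6, minus strand, with the C/EBP match and the TATA box in capitals.
C3: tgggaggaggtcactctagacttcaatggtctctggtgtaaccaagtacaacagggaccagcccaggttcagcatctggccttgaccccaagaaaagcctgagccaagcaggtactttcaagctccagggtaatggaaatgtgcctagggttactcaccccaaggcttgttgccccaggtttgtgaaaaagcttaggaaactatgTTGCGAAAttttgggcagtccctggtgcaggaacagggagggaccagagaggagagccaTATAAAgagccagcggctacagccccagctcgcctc
The C/EBP match begins 45 bases before the RefSeq start and the TATA box 14 bases after it. Of the 5 members found in the RefSeq window table, Cd55, Cd59a, C1ra, C1s1 and C3, C1ra also holds a C/EBP match, 16 bases after its start, and a GAS match, 32 bases after it. C1s1 holds a C/EBP match 242 bases before the upstream of its start sites.

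Cfb encodes factor B, the protease subunit of the alternative C3 convertase. The gene (ENSMUSG00000090231, chromosome 17, 34856374 to 34862518, minus strand, GRCm38) measured 0.251, 0 and 0.135 FPKM in SAHH-het+betaine, 0.0256, 0.258 and 0.142 FPKM in SAHH-het, against 0.0174, 0.178 and 0.223 FPKM in SAHH-WT. The groups overlapped, and the values rest on 57 fragments over all 9 libraries. Of its exon bases, 79.5% lie in exons of Gm20547, a gene annotated on the same strand that runs over Cfb and its neighbour C2 and is listed at 0 in every library. Fragments that fit both genes may have been assigned to neither, and no source used here names the read counter, so the Cfb level is uncertain. For C2 the share is 42.8%.

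Read together, 8 tested members gave the following counts. In SAHH-het+betaine relative to SAHH-het, 6 were higher and 2 lower, with a median of 0.27 against -0.01 over all 15610 genes. limma called none of the 8 as higher or lower, where it called 0.0192% of all genes. Without overlap 2 were higher, Cd55 and C1s1, where 8.21% of all genes were, and 0 lower, where 8.16% were. At an unadjusted p under 0.05 stood 2 of 8, Cd55 and Clu, where 8.03% of all genes stood. Nothing is read from these counts, since the members were chosen on the same SAHH-het libraries.

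In SAHH-het+betaine relative to SAHH-WT, 1 member was higher and 7 lower, with a median of -0.33 against -0.02 over all genes. None was called, as was 0.00% of all genes. Clu, Serping1 and C1ra lay below SAHH-WT without overlap, 3 of 8 where 7.64% of all genes did, and 0 lay above, where 9.29% did. The unadjusted p was under 0.05 for Cd55 and Clu, where 8.01% of all genes had one. The SAHH-WT libraries used here took part in choosing the members, so nothing is read from these counts. In SAHH-het relative to SAHH-WT, the choosing comparison, 2 were higher and 6 lower (median -0.62, all genes 0.01). There 3 lay below without overlap, Cd55, Clu and C1ra (8.28% of all genes), 0 above (8.33%) and 0 were called (0.0256%), counts from which nothing is read, as the members were chosen there. These 3 comparisons share libraries pairwise, so they are not separate evidence. With TPM rescaling the median of all genes was -0.08 between SAHH-het+betaine and SAHH-het, -0.39 between SAHH-het+betaine and SAHH-WT and -0.28 between SAHH-het and SAHH-WT, so a member's difference is best read relative to it.

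**Figure D2:**
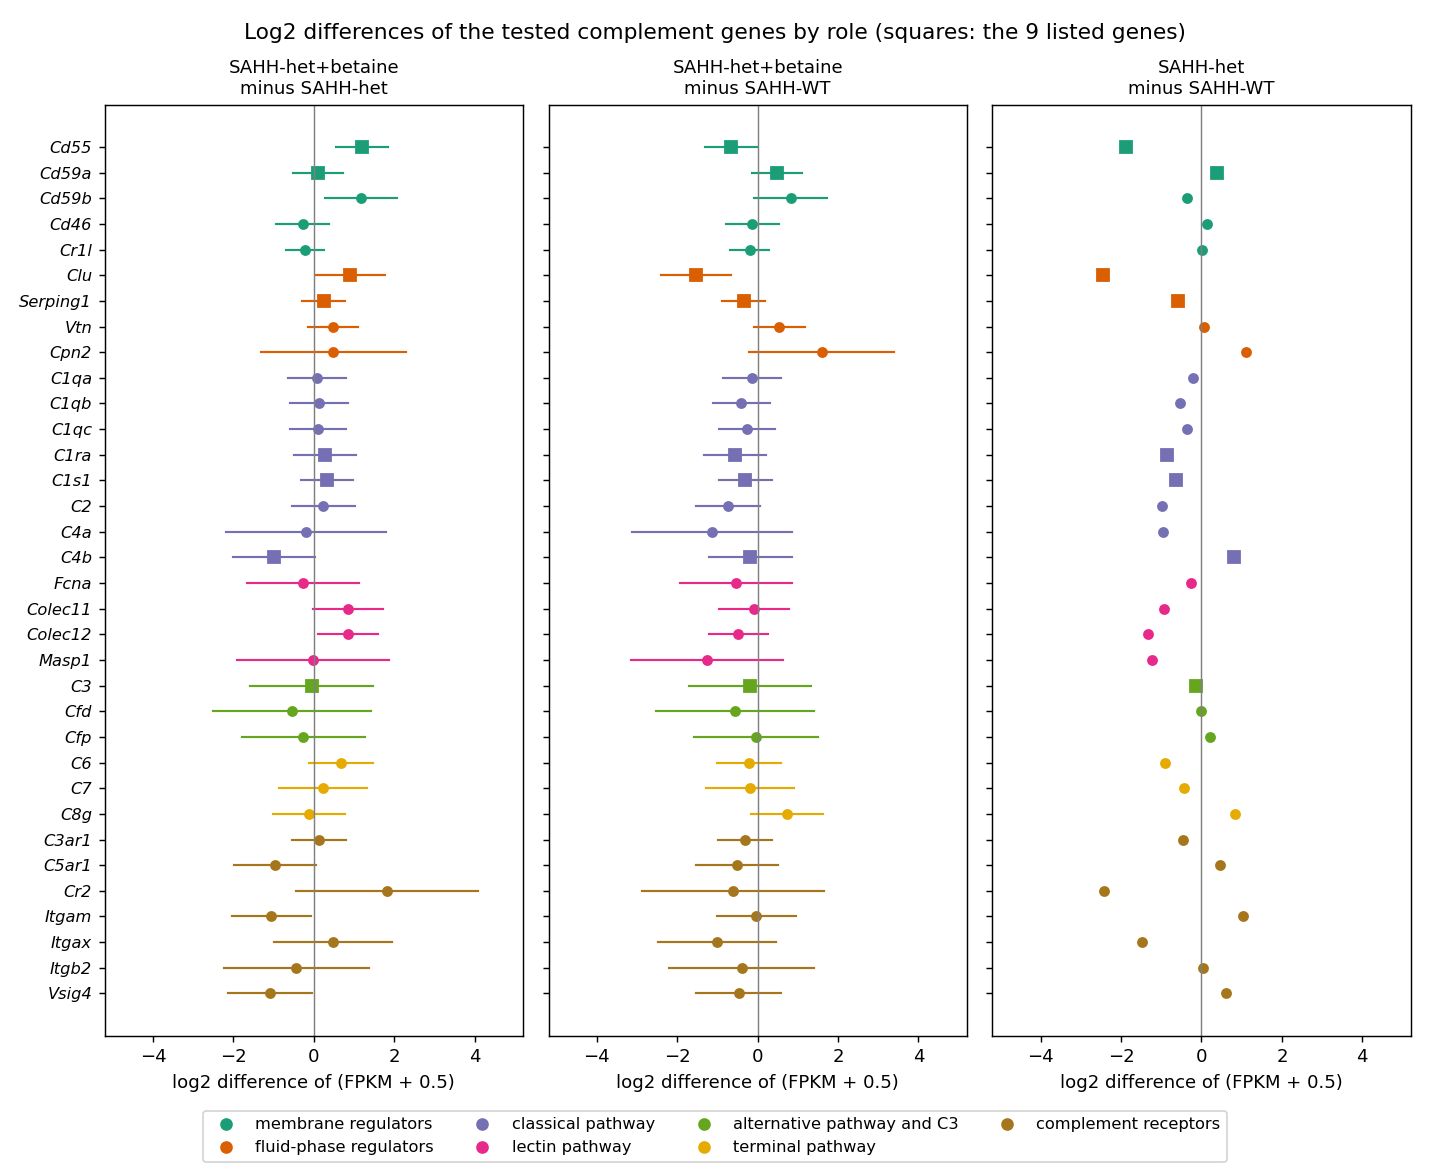
Differences of log2(FPKM + 0.5) for the 34 tested complement genes, grouped by role down the page, with 1 panel per comparison, squares for the chosen members and, for the comparisons other than the choosing one, 95% intervals from limma. Cd55 has 1.20 for SAHH-het+betaine relative to SAHH-het and -1.87 for SAHH-het relative to SAHH-WT, while no difference of C3 or Cd59a exceeds 0.47 in size.

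The wider pathway was read through a list of 54 complement genes in 7 role groups, the 9 members included, of which 34 were tested. limma called 0 in each comparison, and so did voom on recovered fragments. The list was written with results of these data known, and some genes, among them C4a, Masp1 and Cr2, passed the filter mainly through libraries where they were high. In SAHH-het+betaine relative to SAHH-het, 20 were higher and 14 lower (median 0.12), 5 were higher without overlap (Cd55, C1s1, Colec12, Cd59b and Cr2, where 8.21% of all genes were) and 2 lower (C5ar1 and Vsig4, where 8.16% were). At an unadjusted p under 0.05 were 4 higher (Cd55, Clu, Colec12 and Cd59b) and 2 lower (Itgam and Vsig4), where 8.03% of all genes had one in either direction. In SAHH-het+betaine relative to SAHH-WT, 5 were higher and 29 lower (median -0.31), with 2 higher without overlap (C8g and Cd59b, where 9.29% of all genes were) and 6 lower (7.64%). The unadjusted p was under 0.05 for 2 lower genes, Clu and Cd55, and for 8.01% of all genes. In SAHH-het relative to SAHH-WT, 12 were higher and 22 lower (median -0.36), 7 were lower without overlap (8.28% of all genes) and 0 higher (8.33%), and an unadjusted p under 0.05 stood at 1 higher and 10 lower genes, where 12.5% of all genes had one.

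Among the other regulators, Vtn, which encodes vitronectin, a plasma and matrix protein that binds the forming membrane attack complex, measured 7.81, 4.84 and 7.03 FPKM in SAHH-het+betaine, 6.45, 3.20 and 4.32 FPKM in SAHH-het, against 4.01, 3.71 and 5.22 FPKM in SAHH-WT. All 3 groups overlapped. Its difference was 0.48 for SAHH-het+betaine relative to SAHH-het (limma adjusted p = 0.684), 0.06 for SAHH-het relative to SAHH-WT and 0.54 for SAHH-het+betaine relative to SAHH-WT (limma adjusted p = 0.619). In the classical group the chains of C1q, the recognition molecule made by macrophages, overlapped between all groups. C1qa lay between 44.9 and 110 FPKM, with SAHH-het+betaine relative to SAHH-het at 0.07 and SAHH-het relative to SAHH-WT at -0.20. C1qb lay between 39.5 and 107 FPKM, with 0.13 and -0.54 in these comparisons, and C1qc, the other chain, had 0.11 and -0.37.

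In the lectin group, Colec12, a scavenger receptor with a collectin domain, measured 7.46, 7.19 and 5.51 FPKM in SAHH-het+betaine, 1.79, 4.62 and 4.90 FPKM in SAHH-het, against 9.95, 10.5 and 8.18 FPKM in SAHH-WT. As for Cd55, SAHH-het lay lowest without overlap, and SAHH-het+betaine also lay wholly below SAHH-WT. The difference of SAHH-het+betaine relative to SAHH-het was 0.85 (limma adjusted p = 0.596) and SAHH-het relative to SAHH-WT -1.33. Colec11, a soluble collectin, had 0.84 and -0.94 in these comparisons with overlap, and Fcna, ficolin A, -0.28 and -0.26. The lectin genes Mbl1 and Mbl2 were listed at 0 in all 9 libraries.

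Cfd, which encodes factor D (adipsin) and is a leading product of fat cells, measured 2203, 2636 and 553 FPKM in SAHH-het+betaine, 772, 5042 and 2591 FPKM in SAHH-het, against 1277, 2891 and 2843 FPKM in SAHH-WT. It had the highest level in the list, with wide spread inside each group and full overlap. Cfp, which encodes properdin, the stabiliser of the alternative convertase, had a difference of -0.26 for SAHH-het+betaine relative to SAHH-het and 0.22 for SAHH-het relative to SAHH-WT. Of the terminal genes C8g, C7 and C6, whose products belong to the membrane attack complex, none exceeded 8.66 FPKM, and C8b was listed at 0 in all libraries. Hc, which encodes C5, did not exceed 0.0805 FPKM.

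Among receptors, Itgam, the alpha chain of complement receptor 3 on myeloid cells, measured 3.80, 2.26 and 1.75 FPKM in SAHH-het+betaine, 7.52, 7.97 and 3.03 FPKM in SAHH-het, against 1.41, 3.16 and 3.57 FPKM in SAHH-WT. It ran the other way from Cd55, with SAHH-het+betaine relative to SAHH-het at -1.05 (limma adjusted p = 0.605) and SAHH-het relative to SAHH-WT at 1.03, both with overlap. Of its exon bases 68.7% lie in exons of Gm49368, so its level is uncertain. Its beta chain Itgb2 had -0.43 and 0.04, and the C5a receptor gene C5ar1 -0.96 (limma adjusted p = 0.633) and 0.45, with a peak of 8.84 FPKM in SAHH-het 2. C5ar1 was lower in SAHH-het+betaine than in SAHH-het without overlap.

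Levels of cell type markers varied beside these genes. Of 12 adventitial fibroblast markers, all 12 had a lower mean in SAHH-het than in SAHH-WT, and their summed level ran from 592 to 688 FPKM in SAHH-het+betaine, 261 to 443 FPKM in SAHH-het and 445 to 636 FPKM in SAHH-WT, with none at 0 in any library. SAHH-het was thus lowest in the fibroblast sum without overlap, but SAHH-het 3 (443.2 FPKM) and SAHH-WT 1 (444.9 FPKM) nearly met. Gsn alone gave 314 and 282 FPKM of these sums, and it overlapped between SAHH-het and SAHH-WT. Singly, 8 of the 12 markers were lower in SAHH-het than in SAHH-WT without overlap, where 8.28% of all genes were. SAHH-het+betaine overlapped SAHH-WT in the fibroblast sum. In SAHH-het+betaine all 12 had a higher mean log2 level than in SAHH-het. The part of the fibroblast level in these results was not tested. The 5 B cell markers, none at 0, summed to 133 to 628 FPKM in SAHH-het+betaine, 77.6 to 135 FPKM in SAHH-het and 44.9 to 2016 FPKM in SAHH-WT. Ighm made up most of this sum in each library, at 40.2 to 1718 FPKM. All 5 markers were lower in SAHH-het than in SAHH-WT and higher in SAHH-het+betaine than in SAHH-het. SAHH-WT 2 led both that sum and Cd55, and SAHH-WT 1 had the lowest B cell sum of all libraries, with Cd55 at 7.52 FPKM. The part of B cells in the Cd55 level was not tested.

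The 7 macrophage markers, none at 0, summed to 320 to 755 FPKM in SAHH-het+betaine, 387 to 751 FPKM in SAHH-het and 235 to 903 FPKM in SAHH-WT, with 3 of 7 lower on average in SAHH-het than in SAHH-WT. Lyz2 made up most of the macrophage sum in each library, at 193 to 822 FPKM. The 6 mesothelial markers, none at 0, summed to 31.8 to 41.1 FPKM in SAHH-het+betaine, 17.1 to 62.3 FPKM in SAHH-het and 14.1 to 98.4 FPKM in SAHH-WT. The lowest sums were in SAHH-het 1 and SAHH-WT 1, the libraries with the lowest C3. These libraries also had the highest skeletal muscle sums, 8300 and 2161 FPKM, against at most 1184 FPKM elsewhere. SAHH-het 1 was the lowest library for Clu, Serping1, C1ra and C1s1 too, while SAHH-WT 1 was the highest for Clu. The 5 endothelial markers, none at 0, summed to 136 to 243 FPKM in SAHH-het+betaine, 221 to 513 FPKM in SAHH-het and 101 to 258 FPKM in SAHH-WT, with the peak in SAHH-het 2, which also held the peak of C4b. All 5 were higher in SAHH-het than in SAHH-WT and lower in SAHH-het+betaine than in SAHH-het, the other way from Cd55 and Clu. The 5 white fat markers, none at 0, summed to 2613 to 3841 FPKM in SAHH-het+betaine, 3115 to 3704 FPKM in SAHH-het and 667 to 3098 FPKM in SAHH-WT. All 5 were higher in SAHH-het than in SAHH-WT. The sums of SAHH-het lay above those of SAHH-WT, but SAHH-het 1 and SAHH-WT 3 nearly met. Taken singly, only 1 of the 5, Fabp4, was higher there without overlap, where 8.33% of all genes were. The part of these cell types in the member levels was not tested. The 6 hepatocyte markers summed to 3.40 to 4.74 FPKM in SAHH-het+betaine, 2.69 to 6.05 FPKM in SAHH-het and 1.90 to 3.62 FPKM in SAHH-WT, with 3 of them at 0 in at least 1 library and Alb at most 1.29 FPKM.

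The genes most like Cd55 and Clu were taken by Pearson's r of log2(FPKM + 0.5) over the 9 libraries among 11703 protein-coding genes averaging 1 FPKM or more. Over so many genes a high r with 9 points that share their groups and libraries is no finding, and no p is given. For Cd55 they were Dr1, a repressor of transcription by RNA polymerase II (r = 0.96), Cd74, the invariant chain of MHC class II (0.95), Agfg1 (0.95), H2-Aa, an MHC class II chain (0.95), and Heatr1 (0.95). For Clu they were Golga7 (0.99), Ctsh, the protease cathepsin H (0.98), Casd1 (0.97), Cggbp1 (0.95) and Arsk (0.95). Cd74 measured 575, 252 and 262 FPKM in SAHH-het+betaine, 84.7, 130 and 133 FPKM in SAHH-het, against 217, 1100 and 586 FPKM in SAHH-WT, so its highest library was SAHH-WT 2, as for Cd55. Cd55 and Clu shared none of these 10 genes, while r between Cd55 and Clu themselves was 0.82. Both were chosen on the same difference, so nothing is read from that r.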

How the data were processed

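The authors deposited FPKM, fragments scaled by exon length and a factor for each library, in 1 column for each library, with 0 columns unused. That factor did not follow the recovered depth alone. Set to the same exon length, the value of 1 fragment was 0.0490 in SAHH-WT 1 and 0.0768 in SAHH-het+betaine 2. Their recovered depths were 15832043 and 15909619 fragments. The authors aligned to mm10 by HISAT2 2.0.5, per the submitters' processing notes, and the series design text names a count-based test for the authors' comparisons. Read counter, strand setting and annotation release are unstated in them. The value of 1 fragment was recovered from 2000 low genes, and 95.6 to 97.3% of values per library were whole within 0.1. Since FPKM are not counts, a test on a log scale was used instead of a count model.

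limma 3.58.1 (eBayes with trend, two-sided) in R 4.3.3 was fitted to log2(FPKM + 0.5), with 3 group means over 9 libraries and 6 residual degrees of freedom, on the 15610 genes averaging 0.5 FPKM or more. A call needed a p under 0.05 after Benjamini-Hochberg adjustment. The code was tested on simulated data. Positions, overlaps and shared 100-base stretches came from GENCODE on GRCm38, start windows from RefSeq (GRCm38.p6) with Python 3.11.15.

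The members and lists were chosen with earlier results of these data known. Named genes were the 9 members, the 3 of highest mean among those reported in each role group, the paralogs and the 5 most like Cd55 and Clu. A gene of the wider list is not reported here. Other genes named from counts of 8 or fewer, and those listed at 0 or near it, were singled out after their values were seen. The 14 marker lists were those of fibroblasts, macrophages, mesothelium, hepatocytes, smooth muscle, endothelium, B cells, lymphoid stroma, white and brown fat, skeletal and cardiac muscle, adrenal cortex and Schwann cells. Lists not given by group in the text, as summed FPKM over all libraries, were smooth muscle 58.3 to 209.7, lymphoid stroma 3.86 to 181, brown fat 432 to 12356, skeletal muscle 3.17 to 8300, cardiac muscle 1.36 to 611 and Schwann cells 9.13 to 49.2.

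The alternatives tried were TPM rescaling, a pseudocount of 0.1 or 1, filtering at 1 FPKM or not at all, quantile normalization, only the groups compared, robust eBayes, the replicate number as a block, an adjusted p under 0.1 and each library left out. After seeing the data, voom on recovered fragments was added. Same-numbered SAHH-het and SAHH-WT libraries deviated together (r = 0.29, 0.23 and 0.18), the other 6 pairs at -0.35 to 0.08. What a number marks is not stated in the labels, and this pairing comes from the data.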

Additional observations from a re-analysis of the deposited data

How the results depend on the processing

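No complement gene was called in any setting, and the pairing by replicate block left that count at 0. Over the 20 alternatives with their own values, Cd55 stayed between -2.27 and -1.62 for SAHH-het relative to SAHH-WT and between 1.01 and 1.39 for SAHH-het+betaine relative to SAHH-het, where its adjusted p from limma ran from 0.276 to 0.970. Clu stayed between -1.94 and -1.11 for SAHH-het+betaine relative to SAHH-WT (adjusted p 0.383 to 0.967). Members near 0 turned sign. C3 in SAHH-het+betaine relative to SAHH-het was 0.076 with quantile normalization and ran from -0.66 to 0.44 with single libraries left out. In the same leave-outs and comparison, Cd59a ran from -0.024 to 0.28 and C1ra from -0.11 to 0.54, and in SAHH-het+betaine relative to SAHH-WT C3 ran from -0.81 to 0.16 and C4b from -0.34 to 0.0048. C3 in SAHH-het relative to SAHH-WT ran from -0.76 to 0.47.

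Counts of genes called over the whole table were small and moved. SAHH-het relative to SAHH-WT had 4, and 7 with no filter, 2 with TPM rescaling, 1 with only those libraries, 1 with the replicate block in all 9 libraries, 0 with the block in only those libraries and 1 to 5 with single libraries left out. SAHH-het+betaine relative to SAHH-het had 3, and 1 and 0 with these blocks, 5 at an adjusted p under 0.1 and 1 to 4 with single libraries left out. SAHH-het+betaine relative to SAHH-WT had 0, 3 with no filter and 0 to 2 with single libraries left out. The cause of these moves was not tested. Fragments were fewest for Cfb and the other genes near 0. For Cfb, the part of depth and that of exon bases shared with Gm20547 were not tested. Few fragments also stand behind Cd55 in SAHH-het, with 164 at the fewest, and behind Colec11, with 11 to 86 per library.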
